A study of Mus musculus with 54 samples.

Results

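The genes followed here mark the epithelium of the thymus, the stroma in which T cells mature. The list names Psmb11, Foxn1, Prss16, Ccl25, Krt5, Krt8, Epcam and Aire, and members were taken as the rows of the deposited expression table that bear these symbols. Of the 8 listed genes, 7 have a row among the 13611 genes of the table, and Aire, the transcription factor that drives antigen display in the medulla, was not analysed here. The thymus libraries came from C57B6 mice, with 1 library at 0 h, 1 at each hour from 1 to 8 h and 1 at 24 h. Mice at 0 h were not treated, and all other mice had received 10 Gy of gamma radiation. The small intestine, large intestine and spleen were sampled on the same schedule (10 libraries each), and NIH3T3, an established mouse fibroblast line, gave 14 libraries, untreated at 0 h and after 10 Gy at the later times to 24 h. All 54 libraries were made from polyadenylated RNA of whole organs or cultures without strand information. The labels give neither age nor sex of the mice, nor whether different hours came from different animals, and p-values therefore speak only of the spread among these libraries, which may be technical. No irradiated library has an untreated partner at its own hour, so time and radiation cannot be told apart. The series title asks how p53, the transcription factor that DNA damage activates, behaves in tissues that differ in sensitivity to radiation.

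Thymic epithelium is a sparse meshwork that holds densely packed developing T cells, the thymocytes. FOXN1 is the transcription factor that makes an epithelial cell thymic. Cortical epithelial cells carry KRT8, attract progenitors with the chemokine CCL25 and select thymocytes with peptides cut by the proteasome subunit β5t, the product of Psmb11, and by the serine protease made from Prss16. Medullary epithelial cells carry KRT5. EPCAM, an adhesion molecule of the cell surface, is shared by both, and by the epithelium of the intestine. Irradiation is known to deplete thymocytes within hours, while the stroma survives longer.

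Expression is given as FPKM, fragments scaled for transcript length and for all mapped fragments of a library, so that levels can be compared between genes. Changes are differences of log2(FPKM + 1) ± SE. Tests are those of limma, with adjusted p from the Benjamini-Hochberg method over all genes whose mean FPKM reached 1 or more, two-sided, and genes below an adjusted p of 0.05 are said to have risen or fallen. Neighbouring hours served as replicates of a window, and 0 h and 24 h are single libraries that borrow the spread of the other windows. FPKM values carry no fragment totals. Steps between the lowest FPKM values give depth only roughly. At 1 to 7 h, 1 fragment was worth 1.33 to 2.07 times its worth at 0 h by the most common step, but 0.664 to 1.04 times by the next most common, so their order of depth against 0 h is not settled. At 8 h it was worth 4.14 or 2.07 times and at 24 h 1.57 or 3.14 times, so both steps put these libraries below 0 h in depth.

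Libraries that stand apart add to 3 of the genes. In the 24 h thymus library, 20 small intestine markers summed to 14479.7 FPKM, against 36.3 to 63.6 FPKM in the thymus libraries at 0 to 8 h. Their level there was 11.1% (median, quartiles 8.32% and 13.1%) of that in the 24 h small intestine library. Krt8, Epcam and Ccl25 are abundant in small intestine, so their 24 h values are given with and without this share. The share also dilutes the other members in that library, and their rescaled values are given with these. The 2 h large intestine library holds Ccl25 at 466 FPKM, and the 6 h spleen library holds Krt8 at 3.35 FPKM. Both stand apart from their tissues, and the first widens the error of Ccl25 in every comparison that shares the tissue fit.

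The promoters of 3 members are shown because their courses differed: Psmb11 fell over the first 8 h, Ccl25 peaked at 3 h and Krt8 climbed throughout. Each sequence is the 250 bases before a RefSeq transcription start (GRCm38.p6), read 5′ to 3′ on the gene's strand. Capitals mark GACGC, the core that FOXN1 is known to bind, or its reverse complement GCGTC.
Psmb11 (chr14:54625060-54625309, plus strand): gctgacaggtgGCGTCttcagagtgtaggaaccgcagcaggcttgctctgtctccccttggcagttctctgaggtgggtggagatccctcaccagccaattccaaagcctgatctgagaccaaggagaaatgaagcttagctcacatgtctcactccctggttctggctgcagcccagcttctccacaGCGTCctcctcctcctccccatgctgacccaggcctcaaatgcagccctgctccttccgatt
Ccl25, first start (chr8:4324960-4325209, plus strand): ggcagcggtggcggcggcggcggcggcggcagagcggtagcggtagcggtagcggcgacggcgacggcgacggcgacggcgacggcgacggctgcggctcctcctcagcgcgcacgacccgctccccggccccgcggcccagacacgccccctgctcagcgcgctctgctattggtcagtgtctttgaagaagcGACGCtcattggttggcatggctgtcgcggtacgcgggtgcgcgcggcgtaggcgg
Ccl25, second start (chr8:4349338-4349587, plus strand): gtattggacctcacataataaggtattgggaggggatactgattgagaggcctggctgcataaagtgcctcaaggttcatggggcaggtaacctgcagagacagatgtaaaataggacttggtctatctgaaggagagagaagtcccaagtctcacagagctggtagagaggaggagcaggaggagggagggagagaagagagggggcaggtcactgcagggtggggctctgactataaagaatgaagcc
Krt8 (chr15:102004343-102004592, minus strand): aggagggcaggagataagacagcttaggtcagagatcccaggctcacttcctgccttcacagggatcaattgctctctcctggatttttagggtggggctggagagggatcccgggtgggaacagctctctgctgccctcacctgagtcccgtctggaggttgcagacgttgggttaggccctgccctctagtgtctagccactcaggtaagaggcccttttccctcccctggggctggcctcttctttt
The Psmb11 window holds 2 matches, whose first letters lie 239 and 62 bases before the start. The window of the first Ccl25 start holds 1 match, 56 bases before it, and the second Ccl25 window and the Krt8 window hold 0. The windows of Foxn1, Krt5 and Epcam also hold 0, and that of Aire holds 1, 189 bases before its start. Among 32851 RefSeq promoter windows of this length, 22.6% hold at least 1 match on either strand and 5.86% hold 2 or more. A match of 5 letters describes the sequence and shows no binding, and 7 of the 8 genes had a promoter entry.

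Psmb11 lies on chromosome 14 (54621433 to 54629556, GRCm38, plus strand). Its level was 22.1 FPKM at 0 h, and 22.7, 25, 18.4, 8.51, 4.76, 1.90, 1.19 and 0.848 FPKM at each hour from 1 to 8 h. The 24 h library held 14.1 FPKM. Psmb11 was thus at or above its untreated level to 2 h, was then lower at each later hour than at the hour before, and at 8 h stood 26.1-fold below 0 h. The 3 libraries at 6 to 8 h (1.32 ± 0.538 FPKM, SD, n = 3) lay wholly below the 5 at 1 to 5 h (15.9 ± 8.86 FPKM, n = 5). Psmb11 fell by 2.68 ± 0.21 between these windows (limma adjusted p = 1.85e-08), and by 1.67 ± 0.31 from 0 h to the mean of 1 to 8 h (adjusted p = 0.000837), with 6 of 8 libraries below 0 h. In a fit on thymus libraries alone the later fall kept its call (adjusted p = 0.00219), while the fall from 0 h did not (adjusted p = 0.0685). At 24 h Psmb11 was 16.6-fold above 8 h and 1.57-fold below 0 h, and the change from 0 h was not called (−0.62 ± 0.41, adjusted p = 0.229). It was called without the 3 h library (adjusted p = 0.0441).

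Foxn1 lies on chromosome 11 (78357577 to 78386558, GRCm38, minus strand). Its level was 4.89 FPKM at 0 h, then 3.57, 4.98, 1.23, 1.10, 0.00259, 3.35, 7.95 and 8.18 FPKM from 1 to 8 h, and 8.16 FPKM at 24 h. The libraries at 3 to 5 h were lower than all other thymus libraries, and those at 7, 8 and 24 h were the highest. The windows of 1 to 5 h (2.18 ± 2.04 FPKM, n = 5) and 6 to 8 h (6.49 ± 2.72 FPKM, n = 3) overlapped, since 6 h lay below 1 h and 2 h. Foxn1 rose by 1.43 ± 0.21 between them (adjusted p = 1.89e-05, and 0.0143 in the thymus fit alone). Neither 1 to 8 h (−0.62 ± 0.31, adjusted p = 0.198) nor 24 h (0.64 ± 0.41, adjusted p = 0.215) was called against 0 h. Foxn1 and Psmb11 were both lower at 3 to 5 h than at 1 to 2 h, and at 6 to 8 h Foxn1 was higher again while Psmb11 was lower still.

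Prss16, which encodes a serine protease of the cortex, lies on chromosome 13 (22002173 to 22009742, GRCm38, minus strand). Its level was 376 FPKM at 0 h, then 364, 492, 608, 599, 597, 678, 575 and 535 FPKM from 1 to 8 h, and 173 FPKM at 24 h. It was above 0 h in 7 of 8 libraries from 1 to 8 h, with its highest value at 6 h (1.80-fold above 0 h), and the 24 h library was below all others. The early increase was not called (0.54 ± 0.23, adjusted p = 0.132), nor was 6 to 8 h against 1 to 5 h (0.18 ± 0.16, adjusted p = 0.411). By 24 h Prss16 had fallen by 1.11 ± 0.31 from 0 h (adjusted p = 0.00521), a 2.17-fold difference in FPKM, and this call was lost with a pseudocount of 0.1 (adjusted p = 0.381). Prss16 and Psmb11 both belong to the cortical cell, and Psmb11 amounted to 5.89% of Prss16 at 0 h, 0.159% at 8 h and 8.12% at 24 h.

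Ccl25, the ligand of the receptor CCR9 on progenitors and thymocytes, lies on chromosome 8 (4325210 to 4360020, GRCm38, plus strand) and shares 204 bases with Elavl1 on the other strand, whose reads could not be told apart there. Its level was 393 FPKM at 0 h, then 559, 581, 766, 718, 608, 559, 501 and 433 FPKM from 1 to 8 h, and 282 FPKM at 24 h. All 8 libraries at 1 to 8 h were above 0 h, with a peak at 3 h (1.95-fold) and lower values at each later hour. Neither change was called in the shared fit (0.56 ± 1.18, adjusted p = 0.821 for 1 to 8 h against 0 h, and −0.37 ± 0.81, adjusted p = 0.766 for 6 to 8 h against 1 to 5 h). The shared fit includes the large intestine, where Ccl25 was 466 FPKM at 2 h and at most 8.90 FPKM in the other libraries. In the fit on thymus alone the adjusted p was 0.0921 and 0.0581, which also missed the threshold. Ccr9 itself was between 102 and 125 FPKM to 5 h, between 48.0 and 62.2 FPKM at 6 to 8 h, and 4.65 FPKM at 24 h. Ccr9 fell by 1.02 ± 0.15 between the windows (adjusted p = 2.55e-05) and was changed by −4.44 ± 0.30 at 24 h (adjusted p = 5.83e-11).

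Krt8, the type II keratin of simple epithelia, lies on chromosome 15 (101996698 to 102004482, GRCm38, minus strand) and shares 271 bases with Gm36026 on the other strand. Its level was 86.2 FPKM at 0 h, then 99.7, 117, 202, 255, 290.1, 381, 577 and 738 FPKM from 1 to 8 h, and 299.9 FPKM at 24 h. Every library from 1 to 8 h was higher than the hour before it, and 8 h stood 8.56-fold above 0 h. Krt8 rose by 1.64 ± 0.41 from 0 h to 1 to 8 h (adjusted p = 0.00912, 8 of 8 libraries above 0 h), a call lost with a pseudocount of 0.1 (adjusted p = 0.195). Between 1 to 5 h (193 ± 83.4 FPKM, n = 5) and 6 to 8 h (565 ± 179 FPKM, n = 3) the windows did not overlap, and Krt8 rose by 1.62 ± 0.28 (adjusted p = 0.000110).

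Krt5, the type II keratin of basal and medullary epithelium, lies on chromosome 15 too (101707070 to 101712898, minus strand) and shares 129 bases with the miRNA gene Gm44323 on the other strand. Its level was 103 FPKM at 0 h, then 73.1, 89.3, 105, 113, 116, 148, 166 and 209 FPKM from 1 to 8 h, and 197 FPKM at 24 h. The lowest libraries were 1 h and 2 h, and those at 6 to 8 h (174 ± 31.4 FPKM, n = 3) lay above all at 1 to 5 h (99.1 ± 17.7 FPKM, n = 5). Krt5 rose by 0.81 ± 0.11 between these windows (adjusted p = 9.50e-06, 0.00305 in the thymus fit alone, and 0.114 with a pseudocount of 0.1). The mean of 1 to 8 h was not called against 0 h (0.23 ± 0.16, adjusted p = 0.418). Within libraries as deposited, Krt8 was 0.836 times Krt5 at 0 h, 3.53 times at 8 h and 1.52 times at 24 h. Krt8 was above Krt5 at each hour from 1 to 8 h (1.36 times at 1 h, when Krt5 was at its lowest). With the small intestine share taken off the 24 h library and the rest rescaled, Krt8 (135 FPKM) was below Krt5 (222 FPKM).

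Epcam lies on chromosome 17 (87635979 to 87651129, GRCm38, plus strand). Its level was 20.1 FPKM at 0 h, then 18.8, 18.1, 24.6, 42.8, 42.4, 56.7, 65.5 and 87.1 FPKM from 1 to 8 h, and 235 FPKM at 24 h. It was below 0 h at 1 h and 2 h and above it at the other 6 hours, reaching 4.34-fold at 8 h. Epcam rose by 0.92 ± 0.27 over 1 to 8 h (adjusted p = 0.0275), a call lost in the thymus fit alone (adjusted p = 0.0855), with a pseudocount of 0.1 (0.0907), without the 7 h thymus library (0.0748) and without the 8 h library (0.0746). Between 1 to 5 h (29.4 ± 12.4 FPKM, n = 5) and 6 to 8 h (69.7 ± 15.6 FPKM, n = 3) the windows did not overlap, and Epcam rose by 1.29 ± 0.19 (adjusted p = 1.37e-05).

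**Figure D1:**
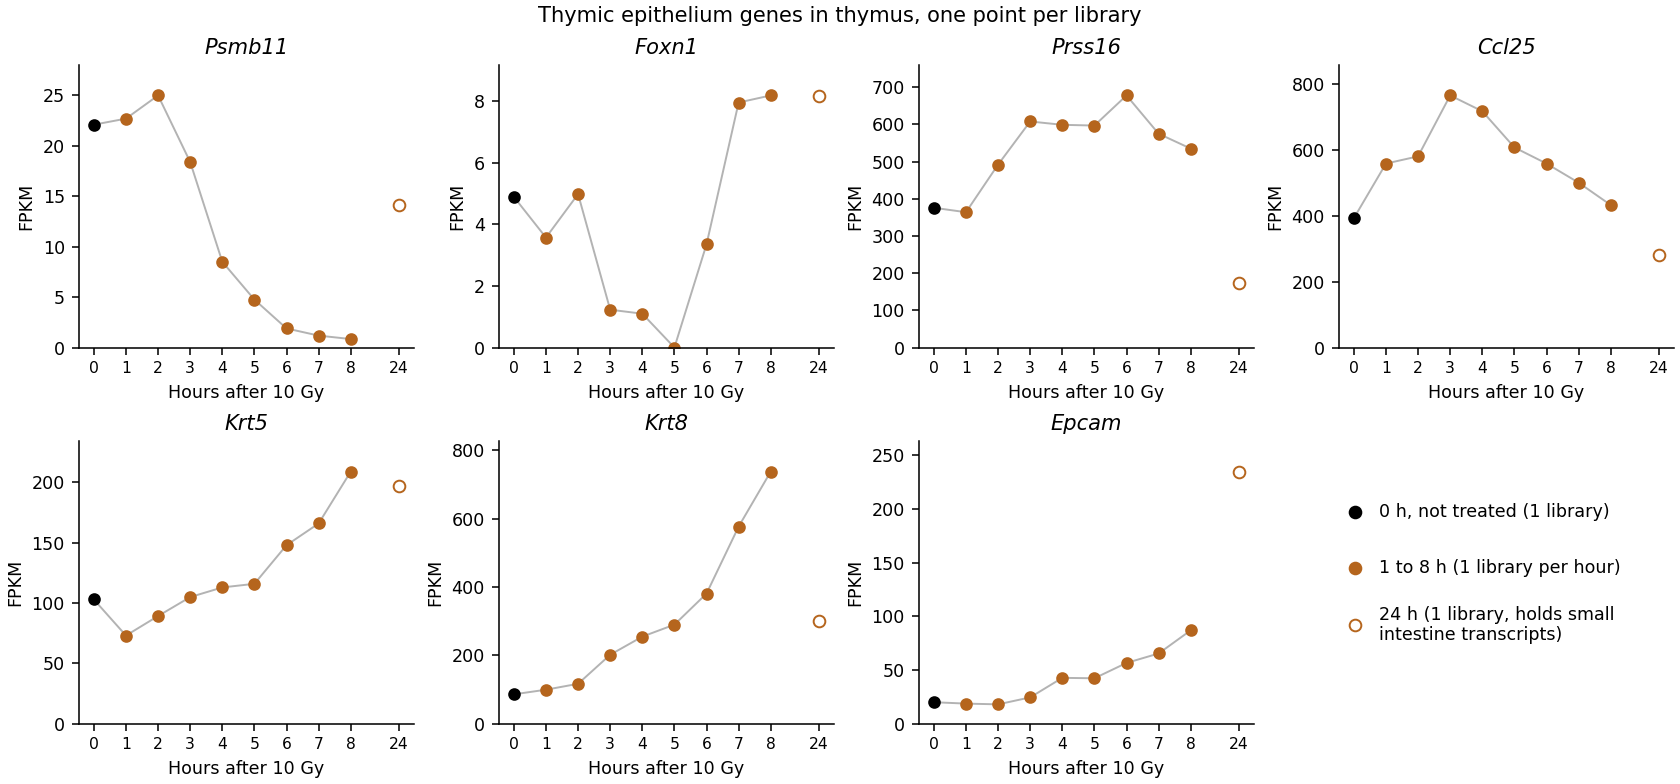
FPKM of each gene in the 10 thymus libraries against hours after 10 Gy, with 1 point per library and a linear axis from 0. Psmb11 declines from 22.1 to 0.848 FPKM between 0 and 8 h while Krt8 climbs from 86.2 to 738 FPKM, and Ccl25 peaks at 766 FPKM at 3 h.

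Over the 7 genes, 3 were called for 1 to 8 h against 0 h (Krt8 and Epcam higher, Psmb11 lower), where 12.2% of all 12426 genes tested were called, 8.29% higher and 3.93% lower. By quantile normalization the split of all calls changed, from 1030 higher and 488 lower to 1122 higher and 1238 lower. For 6 to 8 h against 1 to 5 h, 5 of the 7 genes were called, where 32.1% of all genes were. Of these, Foxn1, Krt5, Krt8 and Epcam rose (18.7% of all genes were called higher) and Psmb11 fell (13.5% lower). The windows of Psmb11, Krt5, Krt8 and Epcam did not overlap, but the share of all genes with windows apart was not counted. Whether this is unusual is therefore not known. All 5 were also called in the fit on thymus alone and against 3 to 5 h. For 24 h against 0 h, 4 of the 7 were called (Krt5, Krt8 and Epcam higher, Prss16 lower), where 45% of all genes were (26.4% higher, 18.6% lower), so the members' share was near the background.

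**Figure D2:**
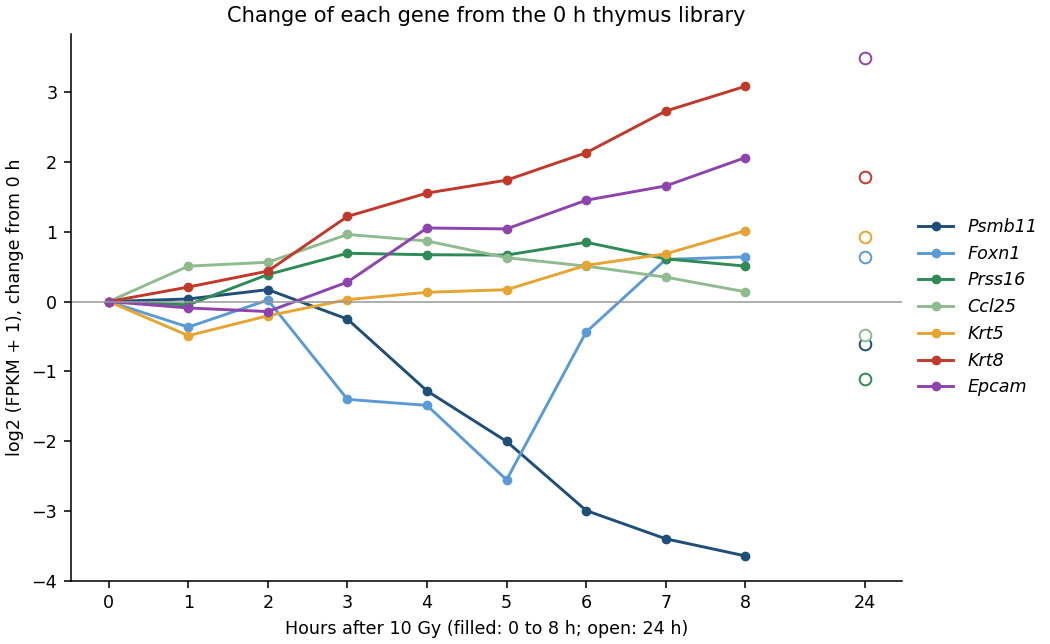
Difference of log2(FPKM + 1) from the 0 h thymus library for the 7 genes, with filled points for 0 to 8 h and open points for 24 h. At 8 h the genes spread from −3.64 for Psmb11 to 3.08 for Krt8, with Epcam at 2.06 and Krt5, Foxn1, Prss16 and Ccl25 between 0.14 and 1.01.

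In whole organs, fewer cells of a type and less RNA per cell cannot be told apart, and FPKM is a share of all fragments. The thymocyte share fell over the same hours, while Krt8, Krt5, Epcam and Foxn1 were higher at 6 to 8 h than at 1 to 5 h and Psmb11 was lower. The 15 measured of 16 thymocyte markers summed to 4218 FPKM at 0 h, 3009 to 3935 FPKM at 1 to 5 h, 1709 to 2174 FPKM at 6 to 8 h and 382 FPKM at 24 h. Of these, 4 fell over 1 to 8 h, 12 between the windows (3 with a pseudocount of 0.1) and 15 by 24 h, with median differences of −0.62, −0.78 and −3.76, against 0.02, 0.00 and 0.15 over all genes. The shares of all genes called lower in these 3 comparisons were 3.93%, 13.5% and 18.6%. They do not apply to the count with a pseudocount of 0.1, whose own share is not given here. Dntt, the polymerase that adds bases to receptor joints, went from 527 FPKM at 0 h to 136 FPKM at 8 h and 3.79 FPKM at 24 h. Rag1, the recombinase of receptor genes, went from 314 to 176 and 2.27 FPKM. The part of this loss in the higher values of Krt8, Krt5, Epcam and Foxn1 was not tested.

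The counts for other stromal cells and neighbouring tissue, and for the epithelial lists after them, stand beside the shares of all genes called higher and lower, which were 8.29% and 3.93% over 1 to 8 h, 18.7% and 13.5% between the windows, and 26.4% and 18.6% by 24 h. All 10 macrophage markers were measured, summing to 928 FPKM at 0 h, 1856 to 2428 FPKM at 6 to 8 h and 2951 FPKM at 24 h, and 5 rose between the windows, 1 against 3 to 5 h and 10 by 24 h. The 9 measured of 10 endothelium markers summed to 57.2 FPKM at 0 h and 83.1 to 104 FPKM at 6 to 8 h, and 6 rose between the windows, with 0 against 3 to 5 h. The 10 fibroblast markers summed to 148 FPKM at 0 h, 295 to 343 FPKM at 6 to 8 h and 477 FPKM at 24 h, and 2 rose between the windows, a share near that of all genes. The 4 measured of 8 keratinocyte markers summed to 30.1 FPKM at 0 h, 66.6 to 169 FPKM at 6 to 8 h and 222 FPKM at 24 h, and 3 rose between the windows. The 6 adipocyte markers summed to 497 FPKM at 0 h, their lowest, 1377 to 2101 FPKM at 1 to 5 h, 723 to 2336 FPKM at 6 to 8 h and 2042 FPKM at 24 h. Their median difference from 0 h was 1.38 at 1 h and −1.15 at 8 h. The parathyroid hormone gene Pth varied from 3.84 to 159.7 FPKM. Neither the adipocyte markers nor Pth had a called change between the windows. No measured marker of these lists was below 0.1 FPKM in every library of a window, and their part in the epithelial genes was not tested. The shares of all genes above are those of the main fit. They do not apply to list counts against 3 to 5 h, where fewer of all genes were called, or to those from other settings.

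All 17 genes of the cortical epithelium list were measured. Over 1 to 8 h 3 rose and 1 fell (median 0.30), between the windows 5 rose and 3 fell (median 0.05, and −0.17 by quantile normalization), and by 24 h 8 rose and 2 fell (median 0.90). With a pseudocount of 0.1 the windows gave 3 rising and 1 falling. The share that fell between the windows was near that of all genes. Enpep, with the largest difference of the list at 24 h (3.75), is also 1 of the small intestine markers. Its 163 FPKM in the 24 h thymus library was 13.3% of its 24 h small intestine level, near the median share of 11.1%. The 24 h counts of this list are those before subtraction, and Enpep cannot be assigned to cortical cells in them. Beside Psmb11, the genes lower at 6 to 8 h than at 1 to 5 h were Tbata, a gene of thymic stroma (−0.89 ± 0.19, adjusted p = 0.000818), and Pax1, a transcription factor of the pharyngeal pouch (−0.70 ± 0.13, adjusted p = 0.000326). Tbata peaked at 702 FPKM at 3 h, from 387 FPKM at 0 h, and was 219 FPKM at 8 h. Pax1 was between 20.8 and 33.0 FPKM to 5 h, 13 FPKM at 8 h and 68.4 FPKM at 24 h. Ctsl, the cathepsin that cuts antigens in cortical cells, was 344 FPKM at 0 h and above it at each later hour, with 1088 FPKM at 8 h and 1214 FPKM at 24 h. It rose by 1.13 ± 0.19 over 1 to 8 h (adjusted p = 0.000347). Kitl, the ligand of the progenitor receptor KIT, and Ackr4, a scavenging chemokine receptor, rose over 1 to 8 h and between the windows. Dll4, the Notch ligand of the cortex, was between 1.21 and 2.79 FPKM from 0 to 8 h with no called change.

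Of 7 catalytic proteasome subunits, Psmb11 was the 1 called by limma over 1 to 8 h and between the windows. Of all genes, 3.93% and 13.5% were called lower there, and the subunits' share between the windows was near the latter. Psmb5, the constitutive β5 subunit whose place β5t takes in cortical cells, was between 31.1 and 53.5 FPKM in all 10 libraries (−0.06 ± 0.16 between the windows, adjusted p = 0.828). Psmb8, the β5 subunit of the immunoproteasome, was 229 FPKM at 0 h and 114 to 166 FPKM at 6 to 8 h (−0.66 ± 0.25 over 1 to 8 h, adjusted p = 0.0834). By quantile normalization Psmb8 was called lower too. Psmb11 was 51.2% of Psmb5 at 0 h, 2.05% at 8 h and 29.8% at 24 h. The differences between Psmb11 and the other subunits were not tested.

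Genes of the medulla were called in the higher direction. Of 21 listed, 18 were measured (Aire, Grhl3 and Ivl were not analysed here). Over 1 to 8 h 3 rose (Cd80, Ltbr and Trp63, median 0.59). Between the windows 12 rose, with a median of 0.73, 8 were called against 3 to 5 h, and 6 with a pseudocount of 0.1. By limma 0 fell in these comparisons, and 0 were lower at an unadjusted p under 0.05. Krt17 was 115 FPKM at 0 h, 85.3 FPKM at 1 h and 1133 FPKM at 8 h, and it rose by 2.06 ± 0.40 between the windows (adjusted p = 0.000408). By 24 h it was back at 126 FPKM. Krt14, the partner keratin of KRT5, was 35.3 FPKM at 0 h, 181 FPKM at 8 h and 66.2 FPKM at 24 h (1.30 ± 0.30 between the windows, adjusted p = 0.00188). Ltbr and Relb, the receptor and the NF-κB subunit through which thymocyte signals shape the medulla, rose by 1.31 ± 0.17 and 1.03 ± 0.16. Fezf2, a regulator of antigen display beside Aire, rose by 0.64 ± 0.10 (adjusted p = 4.21e-05), from 7.83 ± 2.50 FPKM (n = 5) to 12.5 ± 2.36 FPKM (n = 3). Of 13 antigens of other organs that the medulla displays, 5 were measured, and Csn2, a milk casein, Resp18 and Tff3 rose between the windows. In whole organs the medullary list cannot be assigned to epithelial cells alone. Of 8 dendritic cell markers tested, 2 rose (Itgax and Ccr7) and 1 fell (Siglech) between the windows. Of 7 B cell markers tested, 0 rose and 4 fell. Of all genes, 18.7% rose and 13.5% fell, and the part of these cells was not tested.

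Keratins and other epithelial genes were called higher too, in a list that shares Krt5, Krt14, Krt15 and Krt17 with the medullary list. It also holds the members Krt8 and Epcam, so its counts are not independent of those above. Of 20 listed genes 19 were tested. Over 1 to 8 h 8 rose, between the windows 17 rose, and by 24 h 14 rose, with medians of 0.92, 1.29 and 1.79. By limma 0 fell, and 0 were lower at an unadjusted p under 0.05. With a pseudocount of 0.1, 3 rose over 1 to 8 h, and against 3 to 5 h 13 rose. Krt18, the type I partner of KRT8, was 199 FPKM at 0 h and 1748 FPKM at 8 h. The ratio of Krt8 to Krt18 stayed between 0.351 and 0.432 at 0 to 8 h and was 0.71 at 24 h. The 24 h ratio is as deposited, with the small intestine share included. Cdh1, the cadherin of epithelial junctions, went from 14.7 FPKM at 0 h to 112 FPKM at 6 to 8 h (mean, n = 3).

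Of 16 transcription factors and signals that build the thymus, 11 were tested. Over 1 to 8 h 2 rose (Trp63 and Pax9, list median 0.09, and −0.05 with 1 rising and 1 falling by quantile normalization), 4 rose and 2 fell between the windows, the latter a share near that of all genes, and 7 rose by 24 h (median 1.35). Eya1, a transcription cofactor, was 3.41 FPKM at 0 h, 4.53 FPKM at 8 h and 13.8 FPKM at 24 h (1.75 ± 0.28, adjusted p = 3.07e-05). With the small intestine share subtracted from the 24 h library, 7 again rose.

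**Figure D3:**
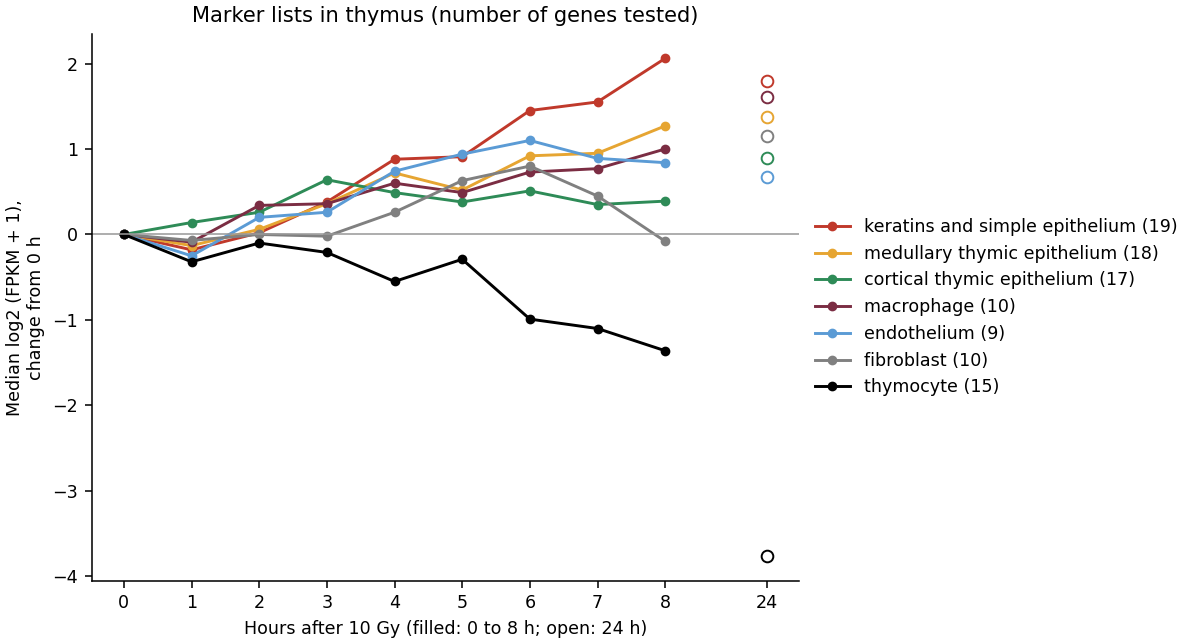
Median difference of log2(FPKM + 1) from 0 h over the tested genes of 7 marker lists in thymus, by hour, with open points for 24 h. The keratin and medullary lists climb to 8 h while the thymocyte list declines, and the cortical list stays between 0.14 and 0.64 from 1 to 8 h and is at 0.90 at 24 h.

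At 24 h, part of 3 genes matched the share of small intestine. Krt8, Epcam and Ccl25 stood at 1617, 1252 and 1182 FPKM in the 24 h small intestine library, and 11.1% of these levels equals 179, 139 and 131 FPKM. That is 59.9% of Krt8, 59.2% of Epcam and 46.5% of Ccl25 in the 24 h thymus library, and at most 0.0496% of each other member. After this part was taken off and the rest rescaled, Krt8 was 135 FPKM (102 to 180.4 FPKM at the quartiles of the share), Epcam 108 FPKM (81.6 to 143 FPKM) and Ccl25 169.6 FPKM (146 to 200.3 FPKM). Krt8 was then 1.57-fold above 0 h and no longer called (0.65, adjusted p = 0.353, against 1.79 ± 0.54, adjusted p = 0.00995 as deposited). Epcam stayed 5.37-fold above 0 h and called (2.37, adjusted p = 1.59e-05, against 3.48 ± 0.36, adjusted p = 8.11e-08). Ccl25 was 2.32-fold below 0 h, not called either way. Krt5, listed at 0 in that small intestine library, was called as deposited (0.93 ± 0.22, adjusted p = 0.00150) and not with a pseudocount of 0.1 (adjusted p = 0.328) or quantile normalization (adjusted p = 0.339). Without its intestine part Epcam at 24 h was still above 8 h (87.1 FPKM), but the lower limit of 81.6 FPKM was not. Over the marker lists, 14 keratin and epithelium genes rose as deposited and 10 rose and 1 fell after subtraction, while the medullary list went from 12 rising to 10 rising and 1 falling.

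**Figure D4:**
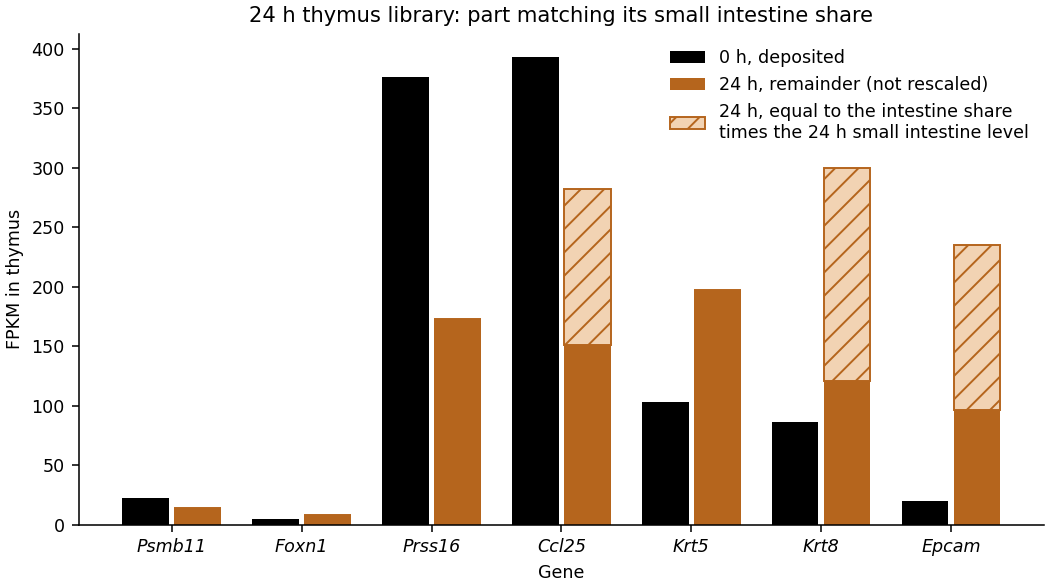
FPKM in thymus at 0 h (black) and at 24 h, where hatched parts equal 11.1% of the 24 h small intestine level and solid parts the remainder before rescaling. The hatched part is 179 of 299.9 FPKM for Krt8, 139 of 235 for Epcam and 131 of 282 for Ccl25, and is not visible for the other genes.

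Across tissues, the genes fell into those near 0 outside the thymus and those shared with the intestine. Psmb11 was listed at 0 in all 10 small intestine, 10 large intestine and 14 NIH3T3 libraries and in 9 of 10 spleen libraries, with 0.0401 FPKM in the tenth. Foxn1 was at most 0.536 FPKM outside the thymus, and Prss16 at most 0.780 FPKM against 173 to 678 FPKM in thymus. Krt5 reached 3.69 FPKM in the 0 h large intestine library and at most 0.426 FPKM in the others outside the thymus. The thymus ranges of these 4 genes lay above those of the other tissues with 1 exception, the 5 h thymus library of Foxn1 at 0.00259 FPKM. They were listed as marks of thymic epithelium, so these levels are given as a description with no test.

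Krt8 had a median of 1636 FPKM in small intestine (1476 to 2112) and 1960.0 FPKM in large intestine (1263 to 2551), against 273 FPKM in thymus (86.2 to 738). It was at most 3.35 FPKM in spleen and listed at 0 in NIH3T3. Epcam had a median of 1536 FPKM in small intestine (1252 to 1743), 1092 FPKM in large intestine (823 to 1199), 42.6 FPKM in thymus (18.1 to 235) and 1.68 FPKM in spleen (0.928 to 3.57), with every NIH3T3 library at 0. The Krt8 ranges of the intestines overlapped, those of Epcam did not, and none reached down to the thymus range. Over 1 to 8 h, thymus was below small intestine by −2.66 ± 0.19 for Krt8 (adjusted p = 2.96e-12) and −5.22 ± 0.13 for Epcam (adjusted p = 1.44e-21), where 85.2% of all genes were called. Against large intestine the differences were −2.91 ± 0.19 and −4.80 ± 0.13, where 80.8% were called. Epcam was higher in thymus than in spleen by 3.79 ± 0.13 (adjusted p = 8.87e-18), where 64.8% were called.

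Ccl25 was the member whose thymus level came nearest to that of an intestine. It had a median of 1170.0 FPKM in small intestine (990.1 to 1268), 559 FPKM in thymus (282 to 766), 4.61 FPKM in large intestine, 1.78 FPKM in NIH3T3 and 0.706 FPKM in spleen. No thymus library reached the small intestine range. The difference over 1 to 8 h was −0.96 ± 0.56 and not called (adjusted p = 0.112). It was called in the fit on both tissues alone (adjusted p = 1.79e-08) and once the libraries that stand apart in large intestine and spleen were left out (adjusted p = 0.00372), and by quantile normalization it turned to 1.15 (adjusted p = 0.0417). Against large intestine Ccl25 was higher in thymus by 6.49 ± 0.56 (adjusted p = 1.17e-10), and by 7.37 without those libraries.

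**Figure D5:**
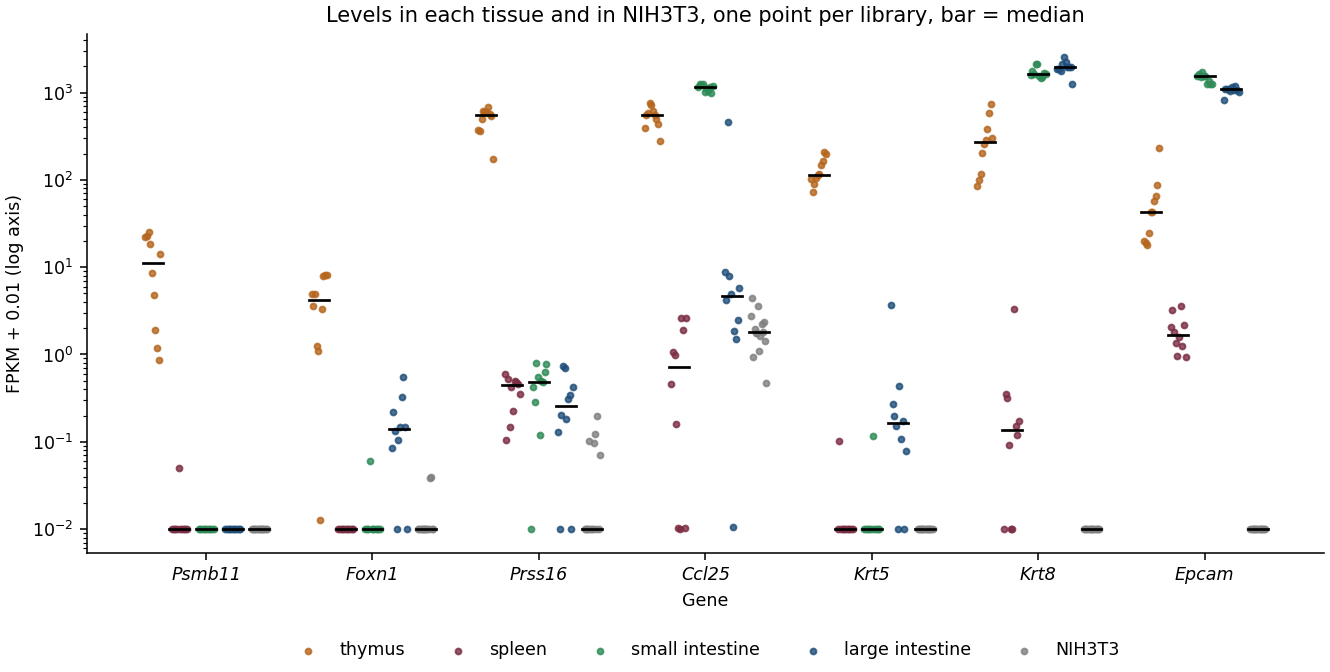
FPKM plus 0.01 on a log axis for each gene in every library of thymus, spleen, small intestine, large intestine and NIH3T3, with 1 point per library and a bar at the median. Psmb11, Foxn1, Prss16 and Krt5 are near 0 outside thymus, while Krt8 and Epcam are highest in both intestines and the single high large intestine point of Ccl25 is the 2 h library at 466 FPKM.

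Whether the members changed differently in thymus and small intestine could be tested for Krt8, Epcam and Ccl25, which pass the filter in both. In small intestine Krt8 was 1606 FPKM at 0 h, 1836 ± 258 FPKM at 1 to 5 h (n = 5) and 1558 ± 100.2 FPKM at 6 to 8 h (n = 3), and Epcam was 1557, 1600.1 ± 87.1 and 1298 ± 57.7 FPKM. The change over 1 to 8 h was higher in thymus than in small intestine by 1.54 ± 0.58 for Krt8 (adjusted p = 0.169), 0.99 ± 0.38 for Epcam (adjusted p = 0.188) and 0.62 ± 1.67 for Ccl25 (adjusted p = 0.903). None was called, where 2.02% of all genes were. For Krt8 the call was gained in the fit on both tissues alone (adjusted p = 0.0450) and with the libraries at 2 h (large intestine) and 6 h (spleen) left out (adjusted p = 0.0109).

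The course of each member over the 9 thymus libraries from 0 to 8 h was set beside those of all 12420 other genes that passed the filter, as a description. The libraries share time and composition, so high correlations are common. Krt8 was followed most closely by Odc1 (Pearson r = 0.998), Sfn (0.996) and Tubb6 (0.995), and Krt5 by Nlrc5 (0.996), Actn1 (0.993) and Efhd2 (0.993). Epcam was followed by Cald1 (0.995), Prr13 (0.993) and Capg (0.993), and Psmb11 by Cfap97 (0.992), Adi1 (0.992) and Tyms (0.990). The nearest genes to Prss16 were Tcn2 (0.986), Id4 (0.979) and Acad9 (0.975), those to Foxn1 were 1110008F13Rik (0.971), Zpr1 (0.967) and Gbp2b (0.963), and those to Ccl25 were Slc35d1 (0.968), Gigyf2 (0.965) and Fam134c (0.952). Among the members, Krt8 and Epcam ran together (r = 0.97) and Psmb11 ran against both (−0.96 and −0.98), while Foxn1 and Psmb11 had r = −0.23.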

How the data were processed

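Polyadenylated RNA was sequenced with a non-directional kit per the labels' protocols. Per the submitters' processing notes TopHat2 2.1.0 and Cufflinks 2.1.1 were used with the mouse build mm10, and the authors deposited 1 table of FPKM values for 13611 genes in 54 libraries. How the genes were selected and whether values were scaled again is not given there. FPKM keeps no total counts, so depth could be placed only roughly, from steps between low values.

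From these values, log2(FPKM + 1) was fitted with limma 3.58.1 (R 4.3.3, mean-variance trend) over all 40 tissue libraries, with a mean for each tissue and window (0, 1 to 2, 3 to 5, 6 to 8 and 24 h), leaving 20 residual degrees of freedom. Genes needed a mean FPKM of 1 in the tissues compared. The fit pools the spread with tissues where Psmb11, Foxn1 and Krt5 are near 0, which lowers their errors, so a fit on thymus alone was an alternative. Other alternatives were the pseudocount, the filter, 2 scalings, the reference window, subtraction of the small intestine share, removal of libraries and, chosen after seeing the data, removal of the 24 h thymus library and the hour as a block between tissues. A simulation of 6 to 8 h against 1 to 5 h covered 12426 genes, of which 200 changed. Noise was independent, and levels did not drift within a window. There 84% of genes changed by 1 on the log2 scale and 95% of those changed by 2 were called, as were 9 unchanged genes. In the data, levels such as Psmb11 drift within windows and 32.1% of genes were called, so these rates need not hold. All members were named. Genes of like course were the 3 with the highest correlation, and list genes were named from those past the threshold, up to 8 per list and comparison by size of change. Genes named beyond this rule (Dll4, Psmb5, Psmb8, Fezf2, Pth) were chosen after their values were seen. Members and lists were chosen with earlier results of these data known. Promoter windows are from RefSeq. Values were tabulated with Python 3.11.15, pandas 2.3.3 and numpy 2.4.6.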

Additional observations from a re-analysis of the deposited data

Results flagged for a closer look

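In 2 cases a value stood far from the other libraries of its group, among 25 groups examined, where chance gives about 1 in 20. Each group held 1 gene in 1 tissue or NIH3T3 at 1 to 8 h, or in NIH3T3 at 9 to 12 h. In large intestine, Ccl25 was 466 FPKM at 2 h and the nearest other library at 1 to 8 h held 7.93 FPKM. The gap was 0.983 of the range at these hours, and the 0 h library, not in the group, held 8.90 FPKM. In spleen, Krt8 was 3.35 FPKM at 6 h and the nearest other library held 0.342 FPKM, a gap of 0.898 of the range.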

How the results depend on the processing

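Over the 7 genes, 31 results were tested and each was recomputed in 15 to 23 settings, many with 1 library left out. Of the 552 values this gave, 533 kept direction and side of the threshold, 12 lost the call, 6 gained it and 1 reversed. The reversal was Ccl25 in thymus against small intestine by quantile normalization (1.15). Several counts of all genes called moved by more than 1.5 times. For 1 to 8 h against 0 h, quantile normalization gave 2360 genes in place of 1518. For 6 to 8 h, 3 to 5 h as reference gave 2104 in place of 3992. For the change in thymus minus that in small intestine, quantile normalization gave 535 and removal of the large intestine library at 2 h with the spleen library at 6 h 363, in place of 220. Quantile normalization also moved the median of all genes at 24 h from 0.15 to −0.14, and that of thymus against small intestine from −0.06 to 0.11. Leaving out each library in turn gave 1088 to 2104 genes for 1 to 8 h, 2692 to 4180 for 6 to 8 h, 5496 to 5634 for 24 h, 7149 to 7392 against spleen, 9190 to 9266 against small intestine and 8950 to 9160 against large intestine. The difference of changes ranged from 61 without the 7 h thymus library to 527 without the 1 h library. The cause of these moves was not tested. Without the 24 h thymus library no call for 1 to 8 h or 6 to 8 h changed among the 7 genes. The labels give no replicate numbers, but tissues share hours, so the hour was added as a replicate block in fits on the tissues compared, an alternative chosen after seeing the data. Libraries of thymus and small intestine at the same hour deviated from their window means with correlations between −0.09 and 0.07, so the hour does not show them as pairs. For thymus and large intestine the correlations lay between −0.11 and 0.16. For thymus and spleen they lay between −0.07 and 0.32, with the highest at 3 h (0.32) and 5 h (0.3), so some sharing by hour is possible there. With this block Ccl25 in thymus against small intestine was called (−0.96, adjusted p = 7.58e-06), the other calls on tissue levels of the 7 genes did not change, and the difference of changes had 0 genes called by limma (613 at an unadjusted p under 0.05). The 0 h and 24 h windows hold 1 library each, and depth is too roughly known to bound values near 0, such as Foxn1 at 5 h.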
